A study of Mus musculus with 4 samples.

Results

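The 31 genes described here mark or serve the B cell lineage, and they were read on 4 arrays out of the 22911 genes that the array probes could be named for. They were chosen by name, as a panel of genes of B cell identity and antigen receptor signalling, with their genotype and LPS differences on these same arrays already known. Every difference between arrays given for them is therefore a description, and no test is attached to it. The cells came from the peritoneal cavity of LysM-St18flox mice or of wild-type (WT) mice. All mice had received 4% thioglycollate, an irritant that recruits leukocytes into the cavity, and the lavage was taken 3 days later. The cells were either stimulated for 3 h with lipopolysaccharide (LPS), a bacterial cell wall component sensed by Toll-like receptor 4, or left at 0 h. Each of the 4 groups (LysM-St18flox 3 h, LysM-St18flox 0 h, WT 3 h and WT 0 h) had 1 array, so no value has a replicate check. The culture medium held 10% serum. LysM in the genotype's name is the lysozyme promoter, with which recombination is directed to myeloid cells such as macrophages and neutrophils, and the St18 gene product is a transcription factor with zinc fingers. The sources used here do not give the dose of LPS, the age of the mice or the number of mice behind an array.

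B cells recognise antigen through a membrane antibody whose signal is carried into the cell by the CD79 chains and passed on by kinases and adaptors such as BTK and BLNK. Their identity is set by a small group of transcription factors that includes EBF1 and PAX5, and a set of surface receptors tunes the signal up or down. The resting peritoneal cavity of a mouse holds many B cells beside resident macrophages, and thioglycollate brings in further cell types.

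By their labels the cells are peritoneal macrophages, and the sample titles say PEC, the usual short form of peritoneal exudate cells. All 12 macrophage markers examined, among them Csf1r and Cd68, were well above background on all 4 arrays. A level in what follows is the log2 of the scanner's processed signal minus the log2 of the array's 75th percentile, taken from the brightest probe of a gene. Levels of different genes come from different probes and are not set against each other. That percentile was 1067 and 882 in LysM-St18flox cells at 0 h and 3 h and 672 and 755 in WT cells. Of the spots on an array, 52.2% to 55.6% were well above background, and saturation was absent (0 spots). For genes with 2 probes measured on all 4 arrays, each probe was first centred on its own mean over the arrays. The centred values of the 2 probes disagreed by a median of 0.13 to 0.16 (log2) on both LysM-St18flox arrays and the WT 3 h array. On the WT 0 h array they disagreed by 0.29, and the part of this in the 0 h differences was not tested. These medians do not measure how far apart the levels of 2 probes lie. For St18 itself, the brightest probe was not well above background in LysM-St18flox cells (-4.54 at 0 h, -4.82 at 3 h) and was so in WT cells (-1.31 and -1.66), which goes with the labels. The sources used here do not say whether this probe sits in the floxed stretch, and outside it the probe would check nothing. The error beside a difference, written ±, is the scanner software's own error of the spots carried into the log2 difference. It covers neither mice nor cultures, and for these genes it ran from 0.20 to 0.40 with a median of 0.21.

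Of the 31 genes, 27 were well above background on all 4 arrays. The other 4, Cd79a, Blk, Ebf1 and Vpreb3, were well above background on both LysM-St18flox arrays and on neither WT array. For those 4 a bound is given, the LysM-St18flox level against the higher of the probe's own WT level and the lowest level called well above background on that WT array. At 0 h, 16 of the 27 genes were higher by 2-fold or more in LysM-St18flox cells and none was 2-fold lower, against 3.04% higher and 3.03% lower among all 12679 genes measured. At 3 h, 15 of 27 were at least 2-fold higher and 0 lower, against 1.82% and 1.4% of 13049 genes. Bounds added 3 higher genes at each time and 0 lower ones. With bounds, the shares among all genes were 4.98% higher and 4.31% lower at 0 h, and 3.09% and 3.15% at 3 h. Since the panel was assembled with these differences in view, nothing is read from those counts against the background. The median difference of the 27 genes was 1.63 at 0 h and 1.19 at 3 h on the log2 scale, beside -0.03 and -0.01 over all genes. In RNA from a mixed lavage, fewer cells of a type and less RNA per cell cannot be told apart.

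**Figure D1:**
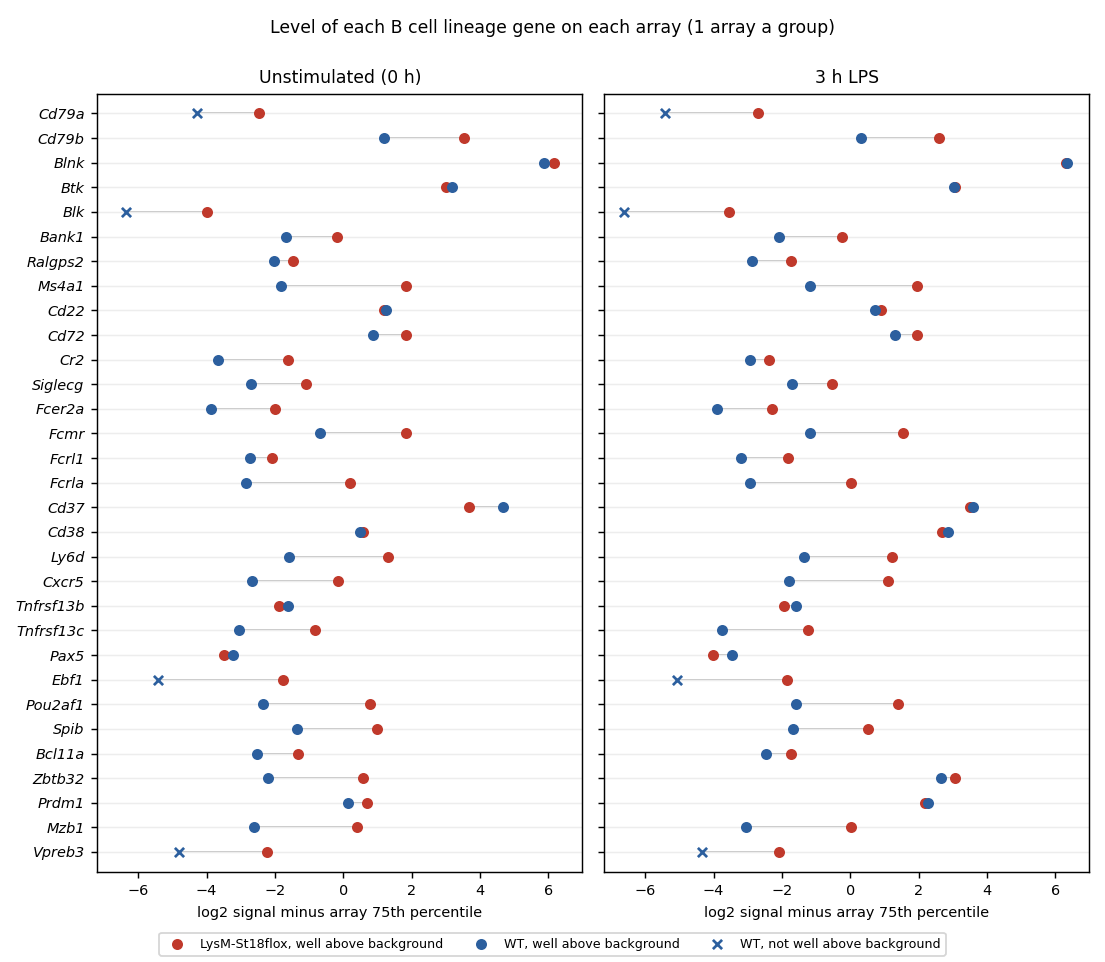
Level of each of the 31 B cell lineage genes on each array, as log2 signal minus the array's 75th percentile, with unstimulated cells on the left and cells after 3 h of LPS on the right. Each point is 1 array (LysM-St18flox in red, WT in blue), crosses mark a probe not well above background, and a grey line joins the 2 genotypes of a gene. Most red points lie right of the blue ones at both times. The points of Blnk, Btk, Cd22, Cd37, Cd38, Tnfrsf13b and Pax5, and of Prdm1 and Zbtb32 at 3 h, lie close together or the other way round.

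The chains of the antigen receptor complex were higher in LysM-St18flox cells at both times. Cd79b had a level of 3.54 in LysM-St18flox cells and 1.19 in WT cells at 0 h, and of 2.60 in LysM-St18flox cells and 0.32 in WT cells at 3 h. The gap was 2.36 ± 0.20 at 0 h (5.12-fold) and 2.28 ± 0.20 at 3 h (4.85-fold), with both LysM-St18flox arrays above both WT arrays. Cd79a, its partner chain, was at -2.48 and -2.70 in LysM-St18flox cells at 0 h and 3 h. In WT cells its probe was not well above background, at -4.28 and -5.42. The bounds were at least 3.18-fold higher at 0 h and at least 3.27-fold higher at 3 h.

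The signalling proteins just below the receptor gave mixed values. Blnk, the adaptor that couples the receptor's kinases to downstream enzymes, was at 6.16 in LysM-St18flox cells against 5.88 in WT cells at 0 h, and at 6.32 in LysM-St18flox cells against 6.34 in WT cells at 3 h. Btk, a kinase of the same step, was at 3.02 and 3.07 in LysM-St18flox cells at 0 h and 3 h and at 3.18 and 3.05 in WT cells. Their differences lay between -0.16 and 0.28, within or close to the scanner error of ± 0.20. Both are known in myeloid cells as well as in B cells. Bank1, a scaffold protein of B cells, was at -0.18 in LysM-St18flox cells and -1.68 in WT cells at 0 h, and at -0.23 in LysM-St18flox cells and -2.08 in WT cells at 3 h. That made it 2.83-fold higher at 0 h (1.50 ± 0.21) and 3.61-fold higher at 3 h (1.85 ± 0.21). Blk, a kinase of the Src family found mainly in B cells, was dim throughout, at -3.98 and -3.56 in LysM-St18flox cells at 0 h and 3 h. In WT cells it was not well above background (-6.37 and -6.64), and the bounds were only at least 1.12-fold and at least 1.80-fold. Ralgps2, an exchange factor for the small GTPase Ral, was at -1.47 and -1.73 in LysM-St18flox cells and at -2.03 and -2.88 in WT cells. Its differences were 0.56 ± 0.22 at 0 h and 1.15 ± 0.23 at 3 h.

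The largest measured gap of the panel at each time was that of Ms4a1, which encodes the membrane protein known as CD20. Its level was 1.83 in LysM-St18flox cells against -1.82 in WT cells at 0 h, and 1.95 in LysM-St18flox cells against -1.18 in WT cells at 3 h. It was 12.5-fold higher at 0 h (3.65 ± 0.21) and 8.72-fold higher at 3 h (3.12 ± 0.21), ranks 4 and 8 from the highest among all genes measured at those times. Fcrla, an Fc receptor-like protein retained inside B cells, was at 0.21 and 0.01 in LysM-St18flox cells and at -2.85 and -2.95 in WT cells, or 8.35-fold and 7.79-fold higher. Ly6d, an anchored surface protein that marks lymphoid progenitors turning to the B lineage, was at 1.32 and 1.23 in LysM-St18flox cells against -1.58 and -1.35 in WT cells, or 7.45-fold and 5.99-fold higher. In these 3 genes each LysM-St18flox level exceeded each WT level by more than 2 units of log2.

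Receptors for antibody and an Fc receptor-like protein followed the same order, with LysM-St18flox levels above WT levels. Fcmr, the receptor for IgM, was at 1.85 in LysM-St18flox cells and -0.68 in WT cells at 0 h, and at 1.56 in LysM-St18flox cells and -1.18 in WT cells at 3 h. It was 5.79-fold higher at 0 h (2.53 ± 0.21) and 6.68-fold higher at 3 h (2.74 ± 0.21). Fcer2a, the low-affinity receptor for IgE, was at -2.00 and -2.28 in LysM-St18flox cells and -3.88 and -3.90 in WT cells at 0 h and 3 h. Its gap was 3.67-fold (1.88 ± 0.33) at 0 h and 3.07-fold (1.62 ± 0.31) at 3 h. Fcrl1, an Fc receptor-like protein of mature B cells, was at -2.10 and -1.82 in LysM-St18flox cells at 0 h and 3 h and at -2.74 and -3.19 in WT cells. The gap of Fcrl1 came to 0.64 ± 0.24 at 0 h and 1.37 ± 0.25 at 3 h, and its second probe gave 0.78 and 0.83.

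Among proteins that tune the antigen receptor signal, the lectin genes Siglecg and Cd22 stood differently. Siglecg, an inhibitory receptor for sialic acid known on peritoneal B-1 cells, was at -1.08 and -0.53 in LysM-St18flox cells and at -2.71 and -1.72 in WT cells. It was 3.10-fold higher at 0 h (1.63 ± 0.24) and 2.28-fold higher at 3 h (1.19 ± 0.21). Cd22, an inhibitory lectin of the same family, was at 1.19 and 0.91 in LysM-St18flox cells at 0 h and 3 h and at 1.26 and 0.73 in WT cells. Those differences were -0.07 ± 0.20 and 0.18 ± 0.20, and a second Cd22 probe gave 0.41 and 0.50. Neither Cd22 probe reached 2-fold at either time. Cd72, an inhibitory receptor also known in myeloid cells, was at 1.84 and 1.95 in LysM-St18flox cells and 0.88 and 1.31 in WT cells, or 1.94-fold and 1.55-fold higher. Cr2, the receptor for complement fragments that lowers the threshold of B cell activation, was at -1.62 in LysM-St18flox cells and -3.65 in WT cells at 0 h. At 3 h the Cr2 level was -2.38 in LysM-St18flox cells and -2.93 in WT cells. Its gap was 2.03 ± 0.30 at 0 h (4.09-fold) and 0.55 ± 0.24 at 3 h, while its second probe gave 0.61 at 0 h and a bound of 0.80 at 3 h. The 2 Cr2 probes thus differed by more than their errors at 0 h.

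A pair of surface proteins that other leukocytes share showed no higher level of 2-fold. Cd37, a tetraspanin, was at 3.68 in LysM-St18flox cells and 4.66 in WT cells at 0 h, and at 3.51 in LysM-St18flox cells and 3.59 in WT cells at 3 h. It had the lowest 0 h difference of the panel, -0.99 ± 0.20, and its second probe gave -1.05. Cd38, an ectoenzyme that breaks down NAD, was at 0.58 and 2.70 in LysM-St18flox cells at 0 h and 3 h and at 0.49 and 2.85 in WT cells. Its genotype differences were 0.08 ± 0.20 and -0.15 ± 0.20.

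Receptors that place B cells in tissue and keep them alive were higher with one exception. Cxcr5, the receptor for the follicle chemokine CXCL13, was at -0.16 in LysM-St18flox cells and -2.66 in WT cells at 0 h, and at 1.11 in LysM-St18flox cells and -1.79 in WT cells at 3 h. It was 5.68-fold higher at 0 h (2.51 ± 0.23) and 7.44-fold higher at 3 h (2.90 ± 0.21). Tnfrsf13c, the receptor for the survival factor BAFF, was at -0.83 and -1.24 in LysM-St18flox cells against -3.04 and -3.75 in WT cells. That was 4.66-fold and 5.66-fold. Tnfrsf13b, which encodes TACI, a second receptor for BAFF and for APRIL, was at -1.89 and -1.93 in LysM-St18flox cells and at -1.63 and -1.58 in WT cells. Its differences of -0.26 ± 0.22 and -0.35 ± 0.22 were small, but its second probe, well above background in LysM-St18flox cells at 0 h (-2.51) and not in WT cells, gave a bound of 1.64 there and -0.36 ± 0.39 at 3 h.

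The transcription regulators held uneven values. Pou2af1, a coactivator that binds Oct factors on octamer motifs, was at 0.80 and 1.40 in LysM-St18flox cells at 0 h and 3 h and at -2.36 and -1.57 in WT cells. It was 8.94-fold higher at 0 h (3.16 ± 0.22) and 7.86-fold higher at 3 h (2.98 ± 0.21). Spib, an Ets factor related to PU.1, was at 0.98 and 0.52 in LysM-St18flox cells against -1.37 and -1.68 in WT cells, or 5.08-fold and 4.60-fold higher. Ebf1, an early and lasting determinant of the lineage, was at -1.77 and -1.86 in LysM-St18flox cells. Its WT levels of -5.43 and -5.06 were not well above background, so it was at least 5.20-fold higher at 0 h and at least 5.85-fold higher at 3 h. Its second probe was bounded at 1.51 and 1.85 on the log2 scale.

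Pax5, the factor that commits a cell to the B lineage, was not higher in LysM-St18flox cells. Its only probe was dim, at -3.49 in LysM-St18flox cells and -3.23 in WT cells at 0 h, and at -4.01 in LysM-St18flox cells and -3.46 in WT cells at 3 h. The differences were -0.26 ± 0.33 and -0.56 ± 0.33, both on the side of higher WT levels. Bcl11a, a zinc finger factor needed to make B cells, was at -1.34 and -1.73 in LysM-St18flox cells and at -2.54 and -2.46 in WT cells. Its brightest probe gave 1.20 ± 0.23 at 0 h and 0.73 ± 0.22 at 3 h, and its second probe 1.13 ± 0.24 and 1.81 ± 0.25. Prdm1, the plasma cell regulator also known as Blimp-1 and present in macrophages, was at 0.70 and 2.19 in LysM-St18flox cells at 0 h and 3 h and at 0.15 and 2.26 in WT cells. Its differences were 0.56 ± 0.21 at 0 h and -0.07 ± 0.20 at 3 h. Zbtb32, a repressor of the BTB family induced in activated lymphocytes, was at 0.59 in LysM-St18flox cells against -2.21 in WT cells at 0 h, and at 3.06 in LysM-St18flox cells against 2.67 in WT cells at 3 h. Its gap was 6.95-fold at 0 h (2.80 ± 0.22) and 1.31-fold at 3 h (0.39 ± 0.20). No other measured gene of the panel changed its genotype difference as much between the times, -2.40 ± 0.30.

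Among genes of antibody assembly, Mzb1, a chaperone of the endoplasmic reticulum in marginal zone and B-1 cells, was at 0.39 in LysM-St18flox cells and -2.63 in WT cells at 0 h. At 3 h its level was 0.02 in LysM-St18flox cells and -3.05 in WT cells. It was 8.12-fold higher at 0 h (3.02 ± 0.23) and 8.42-fold higher at 3 h (3.07 ± 0.24). Vpreb3, a relative of the surrogate light chain of precursor B cells, was at -2.24 and -2.08 in LysM-St18flox cells and not well above background in WT cells (-4.82 and -4.33). It was at least 3.74-fold and at least 4.76-fold higher.

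Since Pou2af1, Ebf1 and Spib were among the higher genes, the promoters of the panel were searched on both strands for the motifs their products are known to work through. These were the octamer ATGCAAAT (reverse ATTTGCAT), the EBF core CCCNNGGG and an Ets core GAGGAA (reverse TTCCTC). The windows, from RefSeq on build GRCm38.p6, run from 250 bases before to 50 bases after a transcription start, and 25 of the 31 genes matched at least 1. Those not matched were Ly6d, Ms4a1, Mzb1, Cxcr5, Blk and Cd79b. The octamer lay in promoters of 2 genes, Vpreb3 and Blnk, and in 1.74% of all 32851 promoters. The EBF core lay in those of Bank1, Cd22 and Spib (13.7% of all promoters) and the Ets core in those of 11 genes (28.3% of all promoters). The 25 genes had 31 promoters between them. Of these, 2 held the octamer (6.45%), 3 the EBF core (9.68%) and 11 the Ets core (35.5%), and these shares were not tested. No promoter of the panel held 2 kinds of these motifs. The Vpreb3 window is chr10:75948050-75948349 on the plus strand, Blnk's is chr19:40994172-40994471, Spib's chr7:44532022-44532321 and Cd22's chr7:30878979-30879278, these 3 on the minus strand. They are shown because each motif occurs both in a gene higher in LysM-St18flox cells (Vpreb3, Spib) and in one that was not (Blnk, Cd22). Capitals mark the octamer in the first pair and the EBF core in the second, where Spib holds 2 overlapping matches.
Vpreb3: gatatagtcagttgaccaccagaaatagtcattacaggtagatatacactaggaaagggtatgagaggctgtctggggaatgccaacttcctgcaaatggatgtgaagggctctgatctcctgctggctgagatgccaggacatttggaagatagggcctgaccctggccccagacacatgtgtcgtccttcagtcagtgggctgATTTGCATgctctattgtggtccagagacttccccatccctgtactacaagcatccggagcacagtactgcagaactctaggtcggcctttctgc
Blnk: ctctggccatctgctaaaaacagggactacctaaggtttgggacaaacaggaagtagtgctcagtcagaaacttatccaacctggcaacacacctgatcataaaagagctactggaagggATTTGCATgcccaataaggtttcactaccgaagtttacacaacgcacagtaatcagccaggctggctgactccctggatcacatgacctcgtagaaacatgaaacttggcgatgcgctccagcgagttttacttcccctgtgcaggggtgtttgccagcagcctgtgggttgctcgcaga
Spib: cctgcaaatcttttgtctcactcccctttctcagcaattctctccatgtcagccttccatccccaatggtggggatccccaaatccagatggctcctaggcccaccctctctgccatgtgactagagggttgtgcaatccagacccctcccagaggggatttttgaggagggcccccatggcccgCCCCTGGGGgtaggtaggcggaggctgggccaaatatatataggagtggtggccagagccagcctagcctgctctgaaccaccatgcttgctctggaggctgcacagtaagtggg
Cd22: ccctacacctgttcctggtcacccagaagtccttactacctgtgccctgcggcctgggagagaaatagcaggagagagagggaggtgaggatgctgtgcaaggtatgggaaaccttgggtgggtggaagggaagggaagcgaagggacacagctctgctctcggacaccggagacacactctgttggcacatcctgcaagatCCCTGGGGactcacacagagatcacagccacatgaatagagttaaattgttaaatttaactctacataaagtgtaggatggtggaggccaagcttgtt
The octamer began at base -45 from the start in Vpreb3 and at -130 in Blnk. The EBF core began at -65 and -64 in Spib and at -48 in Cd22. A match is a run of letters and not a measured binding site.

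**Figure D2:**
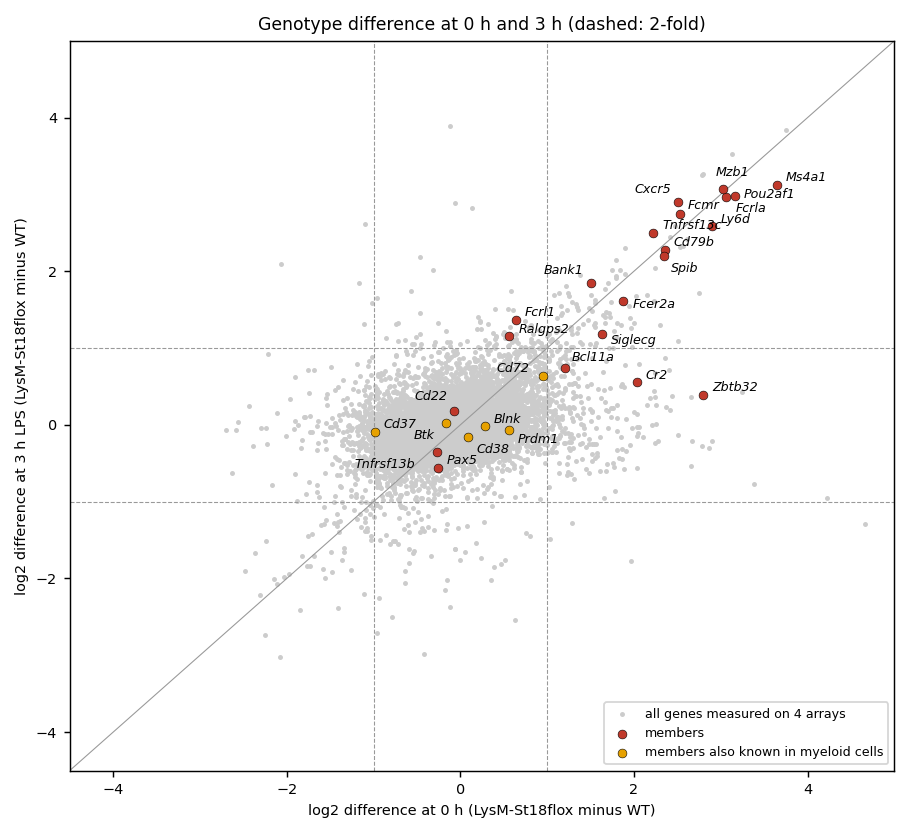
Genotype difference (LysM-St18flox minus WT, log2) at 0 h on the horizontal axis and after 3 h of LPS on the vertical axis, for all 12344 genes measured on 4 arrays (grey), the B cell lineage genes (red) and those of them also known in myeloid cells (orange). The dashed lines mark 2-fold, and 13 B cell lineage genes lie past it on both axes while Zbtb32 and Cr2 lie far to the right and under it.

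The genotype comparisons at 0 h and 3 h share no array. Of the 27 genes measured at both times, 13 were higher by 2-fold or more in LysM-St18flox cells at each, against 0.834% of 12344 genes, and none was 2-fold lower at both, against 0.454%. At 0 h only, Cr2, Bcl11a and Zbtb32 passed 2-fold, and at 3 h only, Ralgps2 and Fcrl1 did. Both LysM-St18flox levels were above both WT levels for 18 of the 27 genes and for 10.9% of all genes. The difference moved by a median of 0.30 between the times, and for 20 genes by no more than 0.5. Over the 27 genes, chosen with these values known, the differences at 0 h and 3 h had a Pearson r of 0.870, and over all 12344 genes one of 0.416. With normexp background correction, Fcer2a was at 0.94 and 0.81 at the 2 times, Bcl11a at 0.79 at 0 h, Siglecg at 0.95, Fcrl1 at 0.91 and Ralgps2 at 0.80 at 3 h, all under 2-fold. The 0 h bounds of Cd79a and Vpreb3 were then 0.84 and 0.92. The panel lies on 14 chromosomes, with at most 6 genes on one, chromosome 7.

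The panel holds 6 genes that are also known in myeloid cells, Btk, Blnk, Cd37, Cd38, Cd72 and Prdm1. None of them was 2-fold higher or lower at either time, and their median differences were 0.18 at 0 h and -0.05 at 3 h. Of the other 25, 21 were measured, and 16 at 0 h and 15 at 3 h were at least 2-fold higher, with medians of 2.22 and 1.85. The genes of those 21 under 2-fold at both times were Cd22, Tnfrsf13b and Pax5. A list of 17 other genes of antigen receptor signalling that many leukocytes share, such as Syk and Lyn, had medians of -0.01 at 0 h and 0.03 at 3 h. In it, 0 genes were 2-fold higher and 1 was lower at 0 h, Dok3 at -1.02, and none was past 2-fold at 3 h.

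The panel was read by 48 probes, with 19 genes on 1 probe and 12 on more. Second probes gave 0.82 and 1.03 for Ralgps2, 0.74 and 0.47 for Cd72 and bounds of 0.82 and 1.41 for Siglecg at 0 h and 3 h. For Tnfrsf13c the second probe was well above background in LysM-St18flox cells at 3 h only. With the second brightest probe in place of the first, 8 of these 12 genes were measured at each time, with medians of 0.68 at 0 h and 0.48 at 3 h. The genes with the largest gaps at 0 h (Ms4a1, Pou2af1, Fcrla, Mzb1 and Ly6d) have a single probe each, so their values have no such check.

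**Figure D3:**
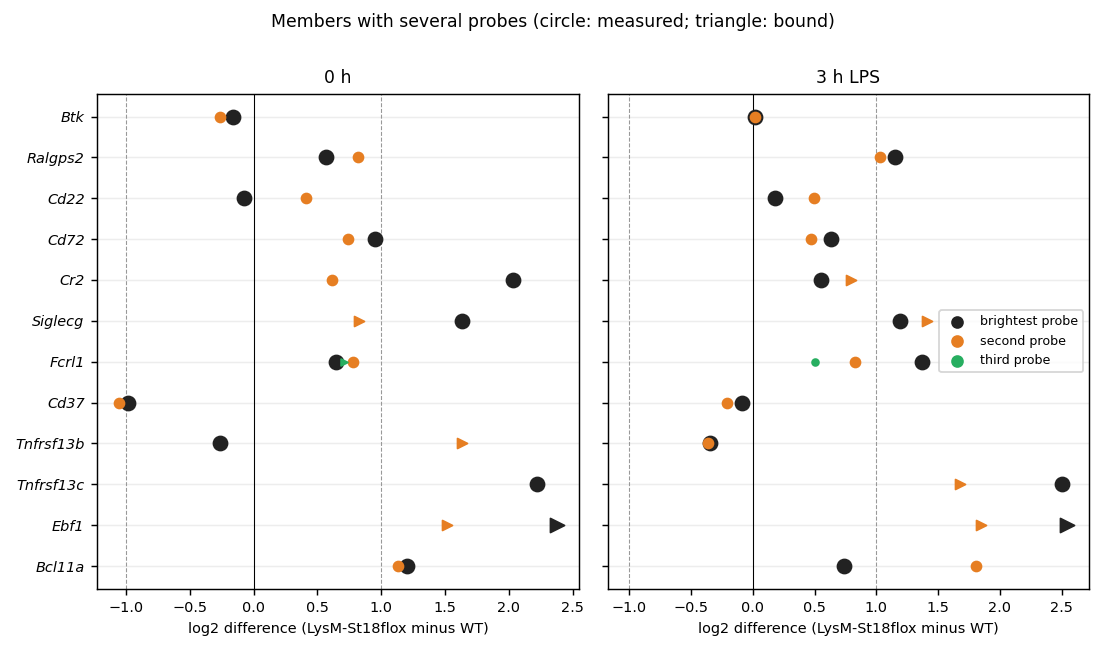
Genotype difference (LysM-St18flox minus WT, log2) of each probe of the 12 B cell lineage genes with several probes, at 0 h (left) and after 3 h of LPS (right). Circles are probes measured in both genotypes, triangles are lower bounds, colours rank the probes by brightness, and dashed lines mark 2-fold. The 2 Cr2 probes lie at 2.03 and 0.61 at 0 h, while those of Cd37 and Btk lie close together.

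After LPS, most of these genes, like most of all genes measured, were under 2-fold from their 0 h level. Nothing particular to the panel is read from this. In LysM-St18flox cells all 31 were measured, and 4 were at least 2-fold higher and 0 lower at 3 h than at 0 h, against 8.12% and 8.97% of 12976 genes. In WT cells 3 of 27 were higher and 1 lower, against 9.04% and 11.6% of 12589 genes. The medians were -0.09 in LysM-St18flox cells and -0.02 in WT cells, and those of all genes -0.09 and -0.11. In both genotypes 22 of 27 stayed under 2-fold, against 75.3% of genes, and 0 were 2-fold lower in both, against 6.26%. Centring arrays on their median instead of the 75th percentile adds 0.23 to every LPS difference in LysM-St18flox cells and 0.09 in WT cells.

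The genes at least 2-fold higher after LPS in a genotype were Zbtb32, Cd38, Prdm1 and Cxcr5. Zbtb32 was at 3.06 at 3 h against 0.59 at 0 h in LysM-St18flox cells (5.54-fold, 2.47 ± 0.20), and at 2.67 against -2.21 in WT cells (29.3-fold, 4.88 ± 0.22). Cd38 was at 2.70 against 0.58 in LysM-St18flox cells and at 2.85 against 0.49 in WT cells, or 4.34-fold and 5.12-fold higher. Prdm1 was 2.80-fold higher in LysM-St18flox cells (1.49 ± 0.20) and 4.33-fold higher in WT cells (2.12 ± 0.20). These 3 were the only panel genes at least 2-fold higher in both genotypes, against 6.19% of all genes. Cxcr5 was 2.40-fold higher in LysM-St18flox cells (1.26 ± 0.20) and 1.83-fold higher in WT cells (0.87 ± 0.23). On the lower side, Cd37 was at 3.51 at 3 h against 3.68 at 0 h in LysM-St18flox cells (-0.17 ± 0.20) and at 3.59 against 4.66 in WT cells (-1.07 ± 0.20). Cd79b was lower at 3 h by a similar amount in both, at -0.94 ± 0.20 in LysM-St18flox cells and -0.86 ± 0.20 in WT cells. Of Ms4a1, Pou2af1, Fcrla, Mzb1 and Ly6d, the genes with the largest genotype differences at 0 h, no LPS difference in either genotype was larger than that of Pou2af1 in WT cells, 0.79 ± 0.23. Pou2af1 was also higher at 3 h in LysM-St18flox cells, by 0.61 ± 0.20, and Ms4a1 differed by 0.12 ± 0.20 in LysM-St18flox cells and 0.64 ± 0.21 in WT cells.

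**Figure D4:**
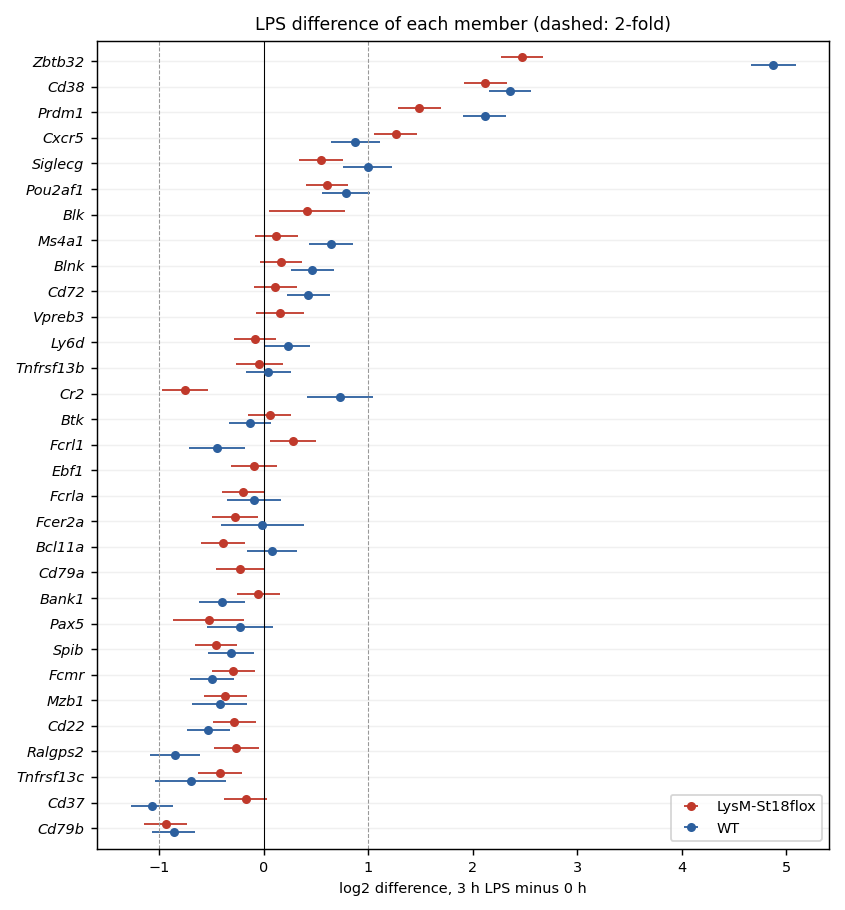
LPS difference (3 h minus 0 h, log2) of each B cell lineage gene in LysM-St18flox cells (red) and WT cells (blue), with bars for the scanner software's error of the difference, 1 array a group. Dashed lines mark 2-fold. Zbtb32, Cd38 and Prdm1 lie right of the line in both genotypes, and the WT value of Zbtb32, 4.88, is the highest.

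Genes of the B lineage outside the panel were checked on a list of 25 names, of which 19 had a named probe. The genes for antibody heavy and light chains on the list were not among those 19. At 0 h, 6 of 16 measured were higher by 2-fold or more in LysM-St18flox cells and 0 lower (median 0.52), and at 3 h 3 of 16 were higher and 0 lower (median 0.53). Ikzf3, a lymphoid factor of the Ikaros family, was at 0.09 and -0.18 in LysM-St18flox cells and -2.52 and -2.60 in WT cells, with differences of 2.61 and 2.41. Cd55, a complement regulator, differed by 2.35 at 0 h and 0.87 at 3 h. The stage of these cells was read on further lists. In a B-1 cell list, 2 of 6 measured genes were 2-fold higher at 0 h and 1 at 3 h, with medians of 0.45 and 0.15. The highest were Cd5, which T cells also carry, at 2.02 and 1.68 and Bhlhe41 at 1.02 and 0.61. The lowest differences of that list were -0.28 at 0 h and -0.35 at 3 h. In a plasma cell list 0 of 5 measured genes was past 2-fold at either time, with medians of 0.41 and 0.33. Another 2 genes of that list were well above background on both LysM-St18flox arrays and on neither WT array. Their bounds were at least 1.22-fold and 1.26-fold higher at 0 h, and at least 1.24-fold and 1.47-fold higher at 3 h. In a precursor B cell list of 9 genes, 5 were measured, of which 1 was 2-fold higher at 0 h and 0 at 3 h, with medians of 0.13 and 0.32. The higher one was Lef1, a factor that T cells also carry, at 1.89 ± 0.30 at 0 h and 0.79 ± 0.25 at 3 h. Vpreb1, a surrogate light chain gene, differed by 0.75 ± 0.28 and 0.32 ± 0.37, and Dntt, the terminal transferase gene, by -0.41 ± 0.30 and 0.70 ± 0.32. Rag1, Rag2, Igll1 and Erg were not well above background on any of the 4 arrays.

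Markers of several other cell types stood higher in LysM-St18flox cells beside the B cell genes, and their part in the panel's differences was not tested. A summed level adds up a list's brightest probes and is set only against the same list on another array. For the panel it was 7.084 and 7.254 in LysM-St18flox cells at 0 h and 3 h against 6.735 and 7.015 in WT cells. Without the 6 genes also known in myeloid cells it was 5.199 and 5.249 against 3.174 and 3.756. The MHC class II genes for presenting antigen, which B cells share with macrophages and dendritic cells, had 6 of 9 measured members 2-fold higher at 0 h (median 1.20) and 5 of 8 at 3 h (median 1.02). H2-Aa was at 4.86 and 5.12 in LysM-St18flox cells at 0 h and 3 h and at 2.86 and 3.79 in WT cells. T and NK cell genes had 6 of 13 measured higher and 1 lower at 0 h (median 0.99) and 9 of 15 higher at 3 h (median 1.06), and their summed log2 level was 3.58 and 3.82 in LysM-St18flox cells against 2.97 and 2.93 in WT cells. Erythroid genes had 4 of 4 measured higher at 0 h and 5 of 5 at 3 h (medians 2.96 and 3.28), with summed levels of 6.37 and 6.59 in LysM-St18flox cells against 3.49 and 3.28 in WT cells. Mast cell genes had 3 of 6 higher at 0 h and 4 of 6 at 3 h (medians 0.98 and 1.51), led by Cma1 at 2.53 and 2.32. Their summed level was 3.27 and 4.15 in LysM-St18flox cells against 2.37 and 4.01 in WT cells, and Ms4a2 was dim on all 4 arrays. Eosinophil genes had 3 of 6 measured higher at 0 h and 1 of 6 at 3 h (medians 0.99 and 0.79). Their summed level was 3.77 at both times in LysM-St18flox cells against 2.79 and 2.95 in WT cells, and Epx and Prg2 were dim on all 4 arrays.

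The macrophage list and the neutrophil list did not share that direction. The list of large peritoneal macrophage genes shared it in its medians but not in its summed level. Of 12 macrophage genes, 1 was 2-fold higher at 0 h, Lyz2 at 1.20, and 0 were at 3 h, with medians of -0.27 and -0.09. Their summed log2 level was 9.32 and 9.58 in LysM-St18flox cells against 9.50 and 9.69 in WT cells. Lyz2 was at 6.03 and 6.07 in LysM-St18flox cells at 0 h and 3 h and at 4.83 and 6.30 in WT cells, so the WT 0 h array stood below the other 3. Neutrophil genes had 5 of 11 measured 2-fold lower and 0 higher at 0 h (median -0.69), and 4 of 10 lower and 1 higher at 3 h (median -0.42). S100a9 was at 3.39 and 3.28 in LysM-St18flox cells against 5.64 and 6.02 in WT cells. The summed neutrophil level was 7.36 and 7.45 in LysM-St18flox cells against 7.35 and 7.97 in WT cells. Large peritoneal macrophage genes, which mark resident cells, had 5 of 12 higher at 0 h and 3 of 12 at 3 h (medians 0.79 and 0.57). At each time 10 of the 12 differences were above 0, and the lowest were -0.45 and -0.24. Their summed level was 7.20 and 7.64 in LysM-St18flox cells against 7.19 and 7.67 in WT cells.

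**Figure D5:**
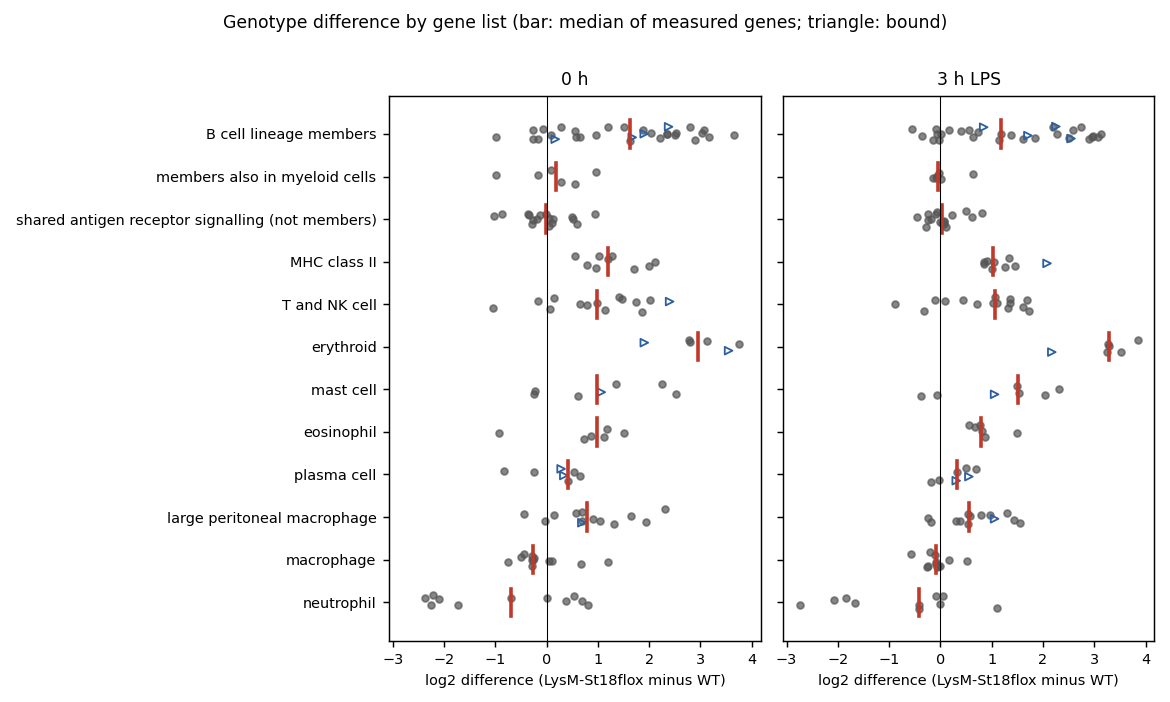
Genotype difference (LysM-St18flox minus WT, log2) of the B cell lineage genes, of those also known in myeloid cells and of 10 other gene lists at 0 h (left) and after 3 h of LPS (right). Each grey point is a measured gene, each blue triangle a lower bound, and the red bar the median of measured genes. The B cell lineage, erythroid, MHC class II, T and NK cell and mast cell medians lie right of 0 at both times. So do the eosinophil, plasma cell and large peritoneal macrophage medians. The neutrophil and macrophage medians lie left of 0.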

How the data were processed

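Total RNA (100 ng per sample, per the labels) was labelled with Cy3 and read on 4 Agilent 1-colour arrays, 1 per group. The deposited spot intensity values were made by the authors in Agilent Feature Extraction (version 11.0.1.1), per the submitters' processing notes, and per the file headers are background-subtracted, without normalization between arrays. The deposited value table holds log2 values of 25482 probes. Its normalization and filter are not given in the sources used here, and all 4 columns had a median of 9.58. It served as an alternative only.

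After dropping control and outlier-flagged spots, log2 signals were averaged per probe and the array's 75th percentile over non-control spots was subtracted. Probes were named by matching accessions to RefSeq (GRCm38.p6). Of 56605 probes, 32994 had 1 symbol and the others none here. The file headers name another build, so coordinates are given only for RefSeq promoters. A gene was measured in a comparison when its brightest probe was well above background and unsaturated on both arrays, and 2-fold was the threshold. With 1 array a group no p-value was computed. The arrays' number limits the precision. Python 3.11.15, R 4.3.3 and limma 3.58.1 (normexp) were used, and the steps were tested on simulated data. Alternatives were normexp (offset 50), quantile normalization, median centring, the deposited table, no or a stricter background filter, and other probe rules.

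The B cell lineage genes and the marker lists were chosen with earlier results of these data known. All 31 genes of the panel are named. Of the lists, at most 4 genes each are named, those with the largest absolute differences among measured genes, beside Syk, Lyn, Cd5, Csf1r and Cd68 as examples, genes dim on every array, and St18 and Lyz2 as checks. A list gene that this rule names is not reported here.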

Additional observations from a re-analysis of the deposited data

Results flagged for a closer look

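Cr2 and Fcrl1 moved in opposite directions with LPS in the 2 genotypes, by 1 array a group, and the difference was not tested. Cr2, the complement receptor, was lower at 3 h than at 0 h in LysM-St18flox cells (-0.75 ± 0.22 on the log2 scale) and higher in WT cells (0.73 ± 0.32). Its second probe gave -0.57 in LysM-St18flox cells and a bound of -0.75 in WT cells, so the 2 probes oppose each other in WT cells. Fcrl1, the Fc receptor-like gene, was at 0.28 ± 0.22 in LysM-St18flox cells and -0.45 ± 0.27 in WT cells. Its second probe gave 0.18 and 0.13.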

How the results depend on the processing

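Of 860 single-gene values under the alternatives, 732 moved by no more than the scanner error and 128 by more. The 732 include values that could not move. A background filter leaves a measured value as it is, so all 108 values of the stricter filter stayed the same. The same holds for measured values with no filter, and for the mean of all probes in genes with 1 probe. The sign changed in 41 of the 860, of which 0 were values of 2-fold or more and 9 were values beyond their scanner error. In 6 of those 9 the alternative value was also beyond that error, all 6 with the second probe or the mean of all probes. Against their brightest probes, the second probe gave a bound of 1.64 for Tnfrsf13b at 0 h (-0.26 ± 0.22), 0.37 for Bcl11a with LPS in LysM-St18flox cells (-0.39 ± 0.21), a bound of 1.41 for Tnfrsf13c there (-0.42 ± 0.21) and a bound of -0.75 for Cr2 with LPS in WT cells (0.73 ± 0.32). The mean of all probes gave 0.81 for Tnfrsf13b and 1.37 for Tnfrsf13c in the same comparisons. The number of genes higher by 2-fold or more in LysM-St18flox cells ran from 14 to 20 at 0 h and from 11 to 19 at 3 h, leaving aside the second brightest probe, with which it was 1 and 2 of 8 measured. The 0 h median of 1.63 became 1.07 with normexp, 1.88 with no background filter and 1.40 with the mean of all probes. Over the 8 genes with a measured second probe, that probe gave a median of 0.68. The 3 h median of 1.19 became 0.81 with normexp and 1.62 with no filter. Over the 8 genes with a measured second probe, that probe gave 0.48. One gene, Cd37, was 2-fold lower at 0 h with median centring, the mean of all probes or the second probe (1 each). For LPS in LysM-St18flox cells, 1 gene was 2-fold lower with quantile normalization, the deposited table or the second probe, the median was 0.14 with median centring, and 0 of 11 were higher with the second probe. In WT cells 0 were lower with normexp, median centring or the second probe and 2 with no filter, while 5 were higher in the deposited table and 0 of 7 with the second probe, whose median was -0.31. The second probe covers fewer genes, a different set from the 27 behind the medians of 1.63 and 1.19. Its medians and counts therefore do not show how those of the 27 genes depend on the probe. Why the other settings moved these values was not tested. Median centring shifts all genotype differences by -0.14 at 0 h and 0.01 at 3 h. No paired analysis was possible because each group has 1 array and the labels give no replicate numbers. Signal over background limits Cd79a, Blk, Ebf1 and Vpreb3 to bounds, and Pax5 to a dim probe.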
